A study of Mus musculus with 24 samples.

Results

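Mitochondrial ribosomal protein genes were followed through a circadian time course in MMH-D3, a hepatocyte line of the mouse. The line is known to come from livers of transgenic mice with a truncated MET receptor, which keeps the cells in culture. Members were the genes whose only symbol in the platform annotation began with Mrpl or Mrps followed by a digit, and each gene was read from its probe set of highest mean. The array held 76 such genes, 47 named for the large and 29 named for the small subunit, with 156 probe sets, out of 18193 genes in all. A gene was tested where its log2 signal reached 5 on at least 6 arrays, which all 76 members and 9825 genes of the array did. All cells had been grown to confluence, differentiated for 14 days with 2% DMSO and given a serum shock, a pulse of serum that sets the clocks of cultured cells to a common phase. Each of 24 arrays measured 1 time point, from 12 to 58 h after the shock at steps of 2 h. There was no array of cells without the shock, no replicate of a time point, and nothing in the labels that says the samples were separate cultures, so every p-value rests on the scatter between these arrays, which may be technical.

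The mitochondrial ribosome translates the few messages encoded by mitochondrial DNA, which specify membrane subunits of the respiratory chain and of ATP synthase. Its RNAs are mitochondrial transcripts, but all of its proteins are encoded in the nucleus, made on cytosolic ribosomes and imported. The small subunit binds and decodes the message, and the large subunit joins amino acids and releases the chain through an exit tunnel facing the inner membrane. Many of the proteins descend from bacterial ribosomal proteins, and others were added in the mitochondrial lineage. Liver cells are rich in mitochondria. Subunit names follow the gene symbol here, although the Mrps30 and Mrps18a proteins sit in the large subunit in structures of the mammalian ribosome and Mrps36 is known as a component of the 2-oxoglutarate dehydrogenase complex.

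Of the markers of other cell types on the array, 0 of 6 fibroblast and 0 of 4 endothelial genes passed the filter, and 2 of 5 macrophage genes did, Csf1r with a mean log2 signal of 5.36 and Cd68 with 6.15. The hepatocyte markers passed in 7 of 8 cases, and Tat was at the lowest value of the table on every array. All 4 bile duct markers also passed, with Krt19 at a mean of 15.44. The array at 40 h stood apart from the others. Its label has a suffix that the other labels lack, and it had the lowest median signal, 8.96, and the smallest share of values at the lowest value of the table, 39.4%. Some results of members that rest on it are given below with and without it. Bulk RNA cannot tell fewer cells of a type from less RNA per cell.

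On some arrays most members lay on the same side of their own mean, and the averages of both subunits followed each other. Each member was set against its own mean over the 24 arrays. At 14 h, 70 of 76 members lay above their own mean, and the average member was 0.18 above it on the log2 scale. At 30 h only 5 of 76 did, and the average member was 0.15 below. On 12 other arrays between 34 and 49 of 76 did, so a shared direction was not seen throughout. The mean over all genes tested was -0.02 at 30 h and -0.05 at 14 h. Over the 24 arrays it ran from -0.09 at 40 h to 0.07 at 46 h, and only 40 h and 18 h (-0.06) were below 14 h. Some related lists lay to one side on the same arrays and others did not. At 14 h all 71 oxidative phosphorylation subunits (100%) and 79.2% of mitochondrial ribosome assembly genes were above their own means, against 31.7% of cytosolic ribosomal proteins. At 30 h 0% of the assembly genes and 2.44% of the cytosolic ribosomal proteins were, against 43.7% of oxidative phosphorylation subunits. The arrays at 12 and 14 h had the lowest median correlations with the other arrays, 0.972 and 0.974. The average member was also low at 34 h, by 0.09, and at 52 h, by 0.11, with 16 of 76 members above their own mean at each. The large and small subunit means had a Pearson correlation of 0.92 and a Spearman correlation of 0.78 over the 24 arrays, and the Pearson value was 0.86 without the arrays at 14 and 30 h. These points share their arrays, their hybridizations and their order in time, so the correlations are descriptions. The average member had a Pearson correlation of 0.62 with the average assembly gene, 0.53 with the average oxidative phosphorylation subunit, 0.24 with the average cytosolic ribosomal protein and -0.10 with the average of all genes. Without the arrays at 14 and 30 h these were 0.50, 0.49, 0.12 and -0.04, and the Spearman values over all arrays were 0.61, 0.50, 0.38 and 0.00. Whether RNA quality or hybridization moved with these array-wide shifts was not tested.

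**Figure D1:**
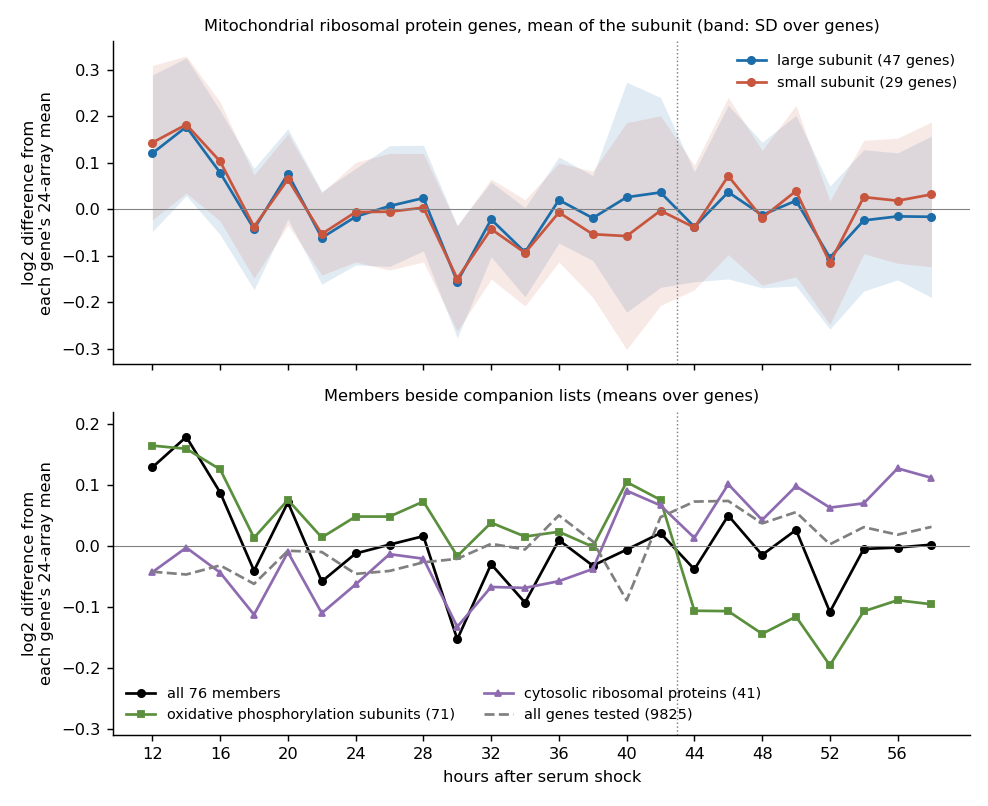
Mean log2 difference from each gene's own 24-array mean (vertical axis) against hours after serum shock (horizontal axis), with 1 array per point. The upper panel shows the large (47 genes) and small (29 genes) subunit with bands of 1 SD over genes, which rise together at 14 h and dip together at 30 and 52 h. The lower panel sets all 76 members beside oxidative phosphorylation subunits, cytosolic ribosomal proteins and all genes tested. The dotted line lies between 42 and 44 h.

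The gap between the subunits was small on every array. The large minus the small subunit mean ran from -0.05 at 54 h to 0.08 at 40 h, on the log2 scale of differences from each gene's mean. It averaged 0.046 ± 0.026 (SD, n = 4 arrays) at 36 to 42 h and -0.030 ± 0.028 at 52 to 58 h. The widest gap was on the 40 h array.

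How closely a gene followed the other members of its subunit differed widely. Mrpl47, a relative of bacterial protein L29 at the tunnel exit, had a correlation of 0.87 with the mean of the other large subunit genes over the 24 arrays. Mrpl58, the peptidyl-tRNA hydrolase that frees stalled ribosomes, had 0.83 and Mrpl37 had 0.77. In the small subunit the closest were Mrps34 with 0.87, Mrps10 with 0.76 and Mrps17 with 0.74. At the other end were Mrpl9 with -0.12, Mrpl45 with -0.11 and Mrpl1 with 0.05. Mrps36 had -0.04, Mrps21 -0.03 and Mrps18c 0.12. The median over all 76 members was 0.49.

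Across the 46 h, more members fell than rose, while over all genes tested more rose than fell. A line through time with a 24 h cosine and sine was fitted to every probe set with limma, and a change was called at a Benjamini-Hochberg adjusted p under 0.05 over all probe sets tested. Among the members 8 of 76 rose and 19 fell, while 26.3% of all genes tested rose and 16.4% fell. The median member changed by -0.04 and the median gene by 0.07, on the log2 scale over 46 h. In the large subunit 6 of 47 rose and 11 fell, and in the small subunit 2 of 29 rose and 8 fell. The scale of the arrays bears on this split. With each array centred on its median 4 members rose and 26 fell, with quantile normalization 5 rose and 22 fell, and without the array at 14 h 14 rose.

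**Figure D2:**
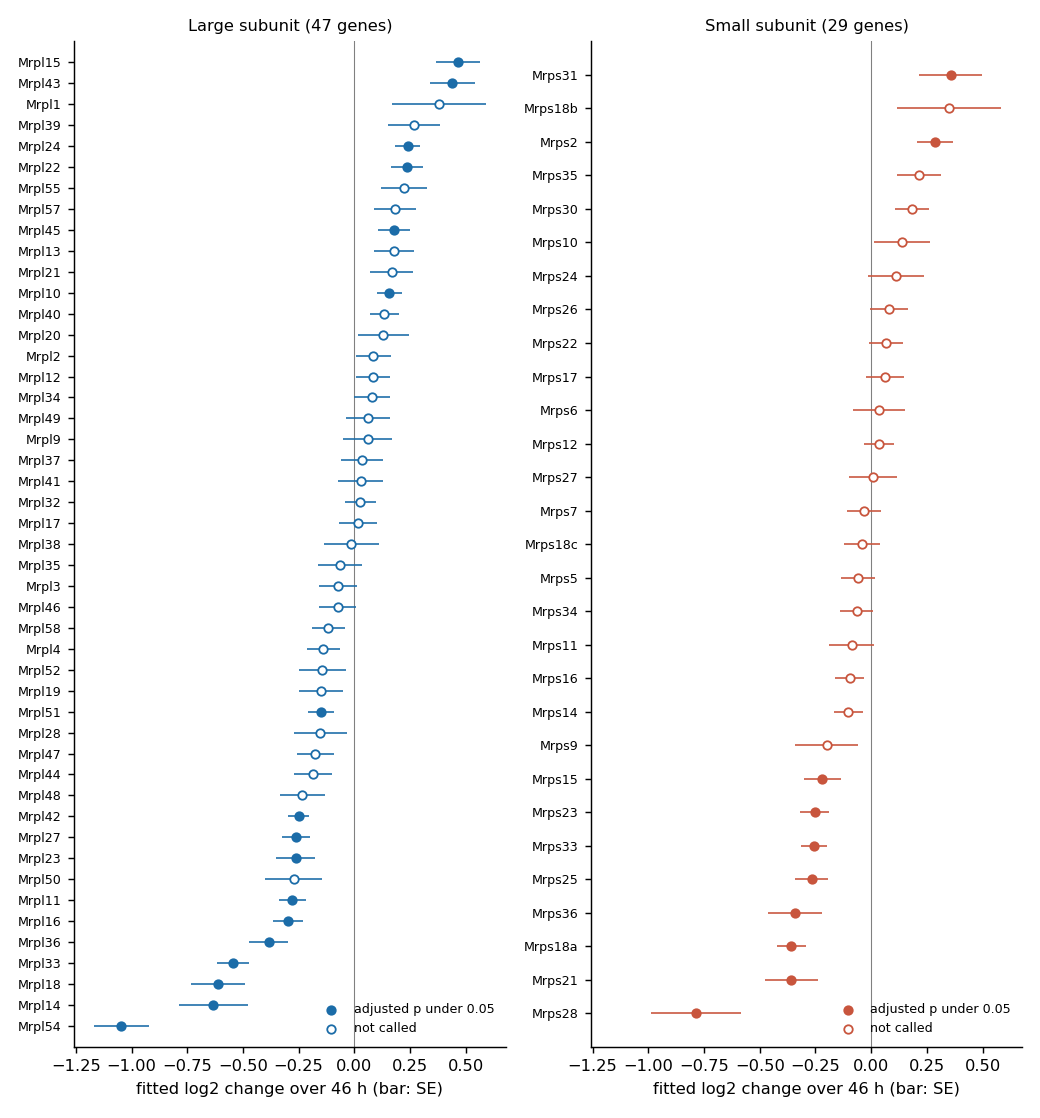
Fitted linear change in log2 signal over 46 h (horizontal axis, bars are standard errors of the fit) for each of the 47 large and 29 small subunit genes, in order of size. Filled points passed an adjusted p of 0.05 and open points did not. Mrpl54 at -1.05 and Mrps28 at -0.79 lie at the lower end, and Mrpl15 at 0.46 and Mrps31 at 0.36 at the upper end.

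Mrpl54, a large subunit protein without a bacterial relative, had the largest fall. Its log2 signal was 10.67 at 12 h, 10.71 at 14 h and 9.31 at 58 h, with a lowest value of 9.23 at 50 h and a median of 9.92. The 4 values of 12 to 18 h all lay above the 4 of 36 to 42 h. The fitted change was -1.05 ± 0.12 (SE), a 2.07-fold fall with an adjusted p of 8.1e-07.

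Mrpl33, a short protein of the large subunit core, stayed between 10.60 and 11.20, with a median of 10.94. Its 8 values from 44 h on ran from 10.60 to 10.81, below each of the 16 earlier values. It changed by -0.54 ± 0.07 over 46 h (adjusted p = 3.9e-06). Mrpl18, a relative of the bacterial protein that holds 5S rRNA, ranged from 11.36 at 48 h to 12.19 at 26 h with a median of 11.78 and changed by -0.61 ± 0.12 (adjusted p = 0.00033). Mrpl14 changed by -0.63 ± 0.16 and Mrpl36, another short core protein, by -0.38 ± 0.09 (adjusted p = 0.0025 and 0.0013).

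Mrps28, a small subunit protein, had the widest range of all members. It fell from 10.36 at 12 h through 9.56 at 24 h and 9.29 at 36 h to 8.84 at 40 h, then stood at 9.55 at 46 h and 9.48 at 58 h, with a median of 9.47. The values of 12 to 18 h and those of 36 to 42 h did not overlap. The change between these 2 sets, the same clock hours 1 day apart, was -1.01 ± 0.12, a 2.02-fold fall (adjusted p = 2.0e-06). Its linear change of -0.79 ± 0.20 (adjusted p = 0.0034) averages a fall and a later rise. Mrps18a, a relative of bacterial S18, fell by 0.36 on the log2 scale over 46 h (SE 0.07, adjusted p = 0.00017). Mrps21 changed by -0.36 ± 0.12 and Mrps36 by -0.34 ± 0.12 (adjusted p = 0.018 and 0.028). With no filter on low values both calls were lost (adjusted p = 0.050 and 0.071), and that of Mrps36 also without the array at 26, 28, 46, 56 or 58 h (adjusted p = 0.069 without 58 h).

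Fewer members rose. Mrpl15, a large subunit core protein with a bacterial relative, ranged from 10.09 at 18 h to 10.76 at 46 h with a median of 10.40 and rose by 0.46 ± 0.10 (adjusted p = 0.00057). Mrpl43 ranged from 10.51 at 30 h to 11.14 at 50 h with a median of 10.82 and rose by 0.44 ± 0.10 (adjusted p = 0.0014). Mrpl24, at the exit tunnel, had a narrow range from 12.73 to 13.08 and rose by 0.24 ± 0.06 (adjusted p = 0.0016). Mrpl22, also at the tunnel, rose by 0.24 ± 0.07 (adjusted p = 0.012), and the call was lost without the cosine and sine (adjusted p = 0.24). In the small subunit Mrps2, a relative of bacterial S2, rose by 0.29 ± 0.08 (adjusted p = 0.0061). Mrps31 rose by 0.36 ± 0.14 (adjusted p = 0.046), a call that was lost when any 1 of 16 of the arrays was left out (adjusted p = 0.125 without 58 h) and with either rescaling.

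Several of these slopes were not called over the hours before 44 h. With the arrays of 44 to 58 h left out, the linear change, expressed over the same 46 h, was 0.18 for Mrpl14, -0.06 for Mrpl18, 0.08 for Mrpl15, 0.12 for Mrps2 and -0.07 for Mrpl43, and none of these was called. That of Mrps31 became -0.52 with an adjusted p of 0.0018, and that of Mrps28 became -1.99. With the arrays of 12 to 18 h left out, that of Mrps28 was -0.20 (adjusted p = 0.36). The 4 arrays of 44 to 50 h were therefore compared with the 4 of 36 to 42 h, in a limma model of 6 blocks of 4 arrays. Arrays of a block are consecutive times, so their spread holds real change within the block.

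At this step 11 of 76 members rose and 13 fell, against 20.5% and 12.7% of all genes tested. In the large subunit 5 rose and 8 fell, and in the small subunit 6 rose and 5 fell. The median member changed by 0.01 as deposited, and by -0.03 and -0.06 with quantile normalization and centring, while the median of all genes was 0.04, -0.02 and -0.03. With either rescaling 7 rose, and 14 fell with quantile normalization and 17 with centring. Without the array at 46 h or at 48 h, 7 rose. Without the 40 h array 16 of these 24 calls held.

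Mrpl14, a large subunit protein at the face that meets the small subunit, made the largest step. It was 10.10, 10.12, 10.24 and 10.61 at 36, 38, 40 and 42 h, and 9.67, 9.32, 9.43 and 9.40 at 44, 46, 48 and 50 h. All 8 values from 44 h on lay below all 16 earlier values. The change was -0.81 ± 0.10, a 1.76-fold fall (adjusted p = 3.7e-06). Mrpl18 went from 12.02, 11.84, 11.61 and 11.89 to 11.51, 11.37, 11.36 and 11.59 over the same hours, also without overlap, and changed by -0.38 ± 0.08 (adjusted p = 0.0011).

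Mrps21, a relative of bacterial S21, made the largest fall of the small subunit. It was 11.17, 11.18, 11.66 and 11.25 before and 10.94, 10.84, 10.92 and 10.67 after, and the 40 h array was its highest of all. The change was -0.47 ± 0.09 (adjusted p = 0.00038), and -0.36 without the 40 h array. Mrps36 changed by -0.38 ± 0.09 (adjusted p = 0.0019), from values of 10.01 to 10.39 to values of 9.65 to 9.91. Mrpl28 changed by -0.34 ± 0.08 (adjusted p = 0.0025), and its values of 10.26 to 10.64 lay above the later 9.89 to 10.16.

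Mrps18b, another relative of bacterial S18, made the largest rise. It was 9.999, 9.94, 9.96 and 10.28 at 36 to 42 h and 10.42, 10.82, 10.74 and 10.81 at 44 to 50 h. The groups did not overlap, and the 42 and 44 h arrays lay between the 2 levels. The rise was 0.65 ± 0.10, or 1.57-fold (adjusted p = 5.4e-05). Mrpl1, which forms the stalk beside the exit site of tRNA, went from 8.93, 8.85, 8.06 and 8.63 to 9.10, 9.28, 9.04 and 9.44. It rose by 0.60 ± 0.14 (adjusted p = 0.0021), and by 0.41 without the 40 h array, its lowest (adjusted p = 0.0075). Mrps31 went from 9.56, 9.59, 9.57 and 9.33 to 9.90, 10.04, 9.89 and 9.93 and rose by 0.43 ± 0.07 (adjusted p = 6.4e-05). Mrpl15 rose by 0.31 ± 0.07 and Mrpl43 by 0.25 ± 0.06 (adjusted p = 0.0018 and 0.0028).

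Smaller changes at the step were called in further members. Mrps18a changed by -0.28 ± 0.07 and Mrps33, a small subunit protein without a bacterial relative, by -0.20 ± 0.06 (adjusted p = 0.0046 and 0.0091). Without the 40 h array each changed by -0.22 (adjusted p = 0.024 and 0.014). Mrpl54 changed by -0.38 ± 0.12 (adjusted p = 0.023), a call lost without the array at 42 h or at 50 h (adjusted p = 0.11 without 50 h). Mrpl9 and Mrpl19 rose by 0.29 ± 0.09 and 0.25 ± 0.08 (adjusted p = 0.021 and 0.020), and both calls were lost without the 40 h array (adjusted p = 0.10 and 0.099). Mrps28 rose by 0.32 ± 0.12 (adjusted p = 0.042), and by 0.24 without the 40 h array (adjusted p = 0.16). Mrps10 rose by 0.25 ± 0.08 (adjusted p = 0.021), and its call was lost without the array at 46 h (adjusted p = 0.090). Centring and quantile normalization also ended the calls of Mrps10 (adjusted p = 0.086 and 0.057) and Mrps28 (adjusted p = 0.081 and 0.080). With no filter on low values the calls of Mrps28, Mrpl54 and Mrpl9 were lost (adjusted p = 0.12, 0.075 and 0.062). With the 24 h cosine and sine beside the blocks, Mrps18a changed by -0.16 and Mrps33 by -0.14 (adjusted p = 0.29 for both). That fit also ended the calls of Mrpl54 and Mrpl19 (adjusted p = 0.18 and 0.096).

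**Figure D3:**
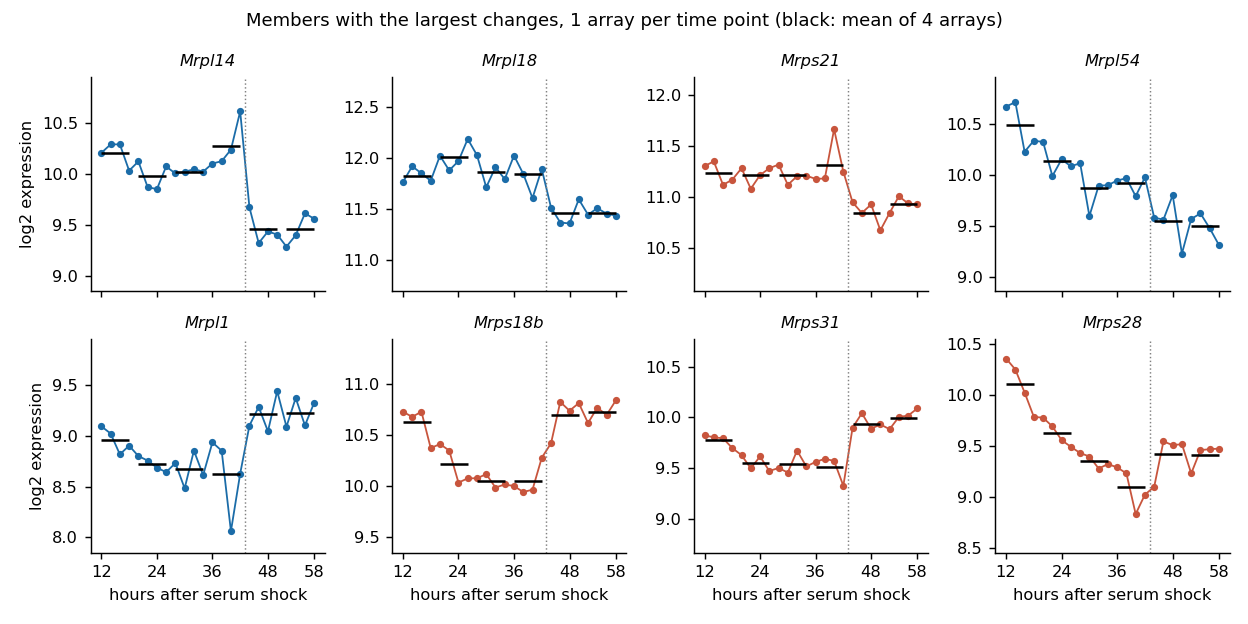
Log2 expression (vertical axis, all panels spanning the same height in log2 units) against hours after serum shock for 4 large subunit (blue) and 4 small subunit (red) genes, with 1 array per point. Black bars are means of 4 consecutive arrays and the dotted line lies between 42 and 44 h. Mrpl14 drops from 10.61 at 42 h to 9.67 at 44 h, Mrps18b rises from 10.28 at 42 h to 10.82 at 46 h, and Mrpl54 falls from early on.

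Promoters are shown for the 2 largest called falls and the 2 largest called rises of each subunit at the step, among members with an entry, so that both directions can be read side by side. They come from RefSeq on build GRCm38.p6, whose table held the first listed start of 67 of the 76 members. Each run is the 100 bases just before that start, 5′ to 3′ on the strand of the gene, with matches to the NRF1 consensus in capitals. Mrpl14 (chr17:45686249-45686348, plus strand), Mrpl18 (chr17:12916092-12916191, minus strand), Mrps21 (chr3:95871515-95871614, minus strand) and Mrps36 (chr13:100744660-100744759, minus strand) fell at the step. Mrpl1 (chr5:96210015-96210114, plus strand), Mrpl9 (chr3:94443236-94443335, plus strand), Mrps18b (chr17:35916441-35916540, minus strand) and Mrps31 (chr8:22411240-22411339, plus strand) rose.
Mrpl14: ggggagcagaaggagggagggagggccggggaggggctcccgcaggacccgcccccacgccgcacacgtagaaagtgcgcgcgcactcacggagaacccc
Mrpl18: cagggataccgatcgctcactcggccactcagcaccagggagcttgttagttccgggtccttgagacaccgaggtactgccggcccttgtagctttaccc
Mrps21: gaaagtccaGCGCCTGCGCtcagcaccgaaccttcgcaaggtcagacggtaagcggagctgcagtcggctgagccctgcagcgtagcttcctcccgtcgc
Mrps36: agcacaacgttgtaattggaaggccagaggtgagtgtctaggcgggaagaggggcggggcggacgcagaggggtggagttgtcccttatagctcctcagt
Mrpl1: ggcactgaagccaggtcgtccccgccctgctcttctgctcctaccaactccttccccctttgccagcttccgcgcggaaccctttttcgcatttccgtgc
Mrpl9: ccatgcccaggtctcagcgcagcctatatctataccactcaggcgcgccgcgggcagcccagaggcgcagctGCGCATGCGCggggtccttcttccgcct
Mrps18b: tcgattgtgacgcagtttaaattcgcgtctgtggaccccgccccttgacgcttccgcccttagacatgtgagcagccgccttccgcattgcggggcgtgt
Mrps31: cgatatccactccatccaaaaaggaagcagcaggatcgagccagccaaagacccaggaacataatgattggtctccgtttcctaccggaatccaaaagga
The NRF1 consensus stands 91 bases before the start of Mrps21, which fell, and 28 bases before the start of Mrpl9, which rose. The other 6 runs hold no match to the NRF1, ETS or YY1 letters within the 100 bases shown. The window searched below, 250 bases before to 50 after each start, holds further matches outside these runs. There Mrpl14 has the NRF1 consensus, Mrpl18, Mrps18b and Mrps21 have the ETS letters, and Mrpl9 has the YY1 letters. Mrps36, Mrpl1 and Mrps31 have no match to these letters in that window.

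NRF1 and the ETS factor GABP are transcription factors known for driving nuclear genes of mitochondrial proteins, and YY1 is another. The consensus of NRF1, the letters CCGGAAG for ETS and the letters ATGGCGGC for YY1 were searched on both strands, over 250 bases before and 50 after each start. Matches were described and not tested, and they are no evidence of binding. The ETS letters were in 24 of 67 members (35.8%), in 20.4% of the promoters of genes tested and in 9.12% of all promoters. The NRF1 consensus was in 12 members (17.9%), in 11.8% of genes tested and in 4.78% of all. The YY1 letters were in 11 members (16.4%), in 5.67% of genes tested and in 2.38% of all, and in 10 of the 11 members they lay after the start. In the promoters of cytosolic ribosomal proteins the ETS letters were in 48.6%, the NRF1 consensus in 10.8% and the YY1 letters in 2.7%. In those of oxidative phosphorylation subunits these shares were 26.2%, 23% and 8.2%. At least 1 of the 3 was in 23 of 41 large subunit (56.1%) and in 15 of 26 small subunit promoters (57.7%). It was in 56.8% of cytosolic ribosomal protein promoters, 50.8% of oxidative phosphorylation promoters and 33.4% of genes tested. Among members called at the step it was in 5 of the 8 with an entry that rose and in 8 of the 12 that fell. The E-box letters CACGTG, bound by clock factors and by MYC, were in 5 of 67 members (7.46%), in 10.8% of genes tested and in 7.24% of all. Among the members called at the step they were in 0 of 8 that rose and in 0 of 12 that fell.

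Shared starts were common. In 24 of 67 members (35.8%) another gene began within 1000 bases in the opposite direction, as in 18.1% of genes tested and 10.5% of all promoters. The share was 29.5% for oxidative phosphorylation subunits and 21.6% for cytosolic ribosomal proteins. Mrpl46 and Mrps11, from different subunits, start 42 bases apart, and their linear changes were -0.07 and -0.09, neither called. Such partners did not always move alike. Mrpl14 starts 131 bases from Tmem63b, and their linear changes were -0.63 and 0.36 (adjusted p = 0.0025 and 0.0033). Mrpl18 starts 238 bases from Tcp1, a subunit of the cytosolic chaperonin, and their linear changes were -0.61 and 0.32 (adjusted p = 0.00033 and 0.00014). Mrpl47 starts 308 bases from Ndufb5, a subunit of complex I. Their linear changes were -0.18 (adjusted p = 0.091) and -0.61 (adjusted p = 1.6e-07). No difference between partners was tested.

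Time points 24 h apart share the nominal phase of the clock, so 2 comparisons over 1 day were made. Before the step, at 36 to 42 h against 12 to 18 h, 3 of 76 members were higher and 17 lower, where 14.3% and 12.1% of all genes tested were. The median member changed by -0.07 and the median gene by 0.00. In the large subunit 3 were higher and 11 lower, and in the small subunit 0 were higher, also at an unadjusted p under 0.05, and 6 lower. The count of lower members was 7 without the array at 12 h, 7 without that at 14 h and 10 without that at 42 h, and the count of higher members was 1 without 18 h, 1 without 42 h and 5 without 30 h. The arrays at 12 and 14 h are those on which most members lay above their own mean. Without the 40 h array 13 of the 20 calls held.

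Beside Mrps28, the lower members were led by Mrps18b, which went from 10.73, 10.68, 10.73 and 10.37 to the values given for 36 to 42 h and changed by -0.58 ± 0.10 (adjusted p = 0.00024). Mrpl54 changed by -0.57 ± 0.12 (adjusted p = 0.0017). Mrpl50 went from 12.08, 12.08, 12.03 and 11.93 to 11.78, 11.69, 11.33 and 11.57 and changed by -0.44 ± 0.08 (adjusted p = 0.00045). Without the 40 h array, its lowest, it changed by -0.35 (adjusted p = 0.0020). Mrpl38 and Mrpl44 changed by -0.34 ± 0.08 and -0.30 ± 0.06 (adjusted p = 0.0046 and 0.0012). Mrps31 and Mrps10 changed by -0.27 ± 0.07 and -0.25 ± 0.08 (adjusted p = 0.0062 and 0.026), and the call of Mrps10 was lost without the array at 12, 14 or 42 h (adjusted p = 0.10 without 12 h) and with no filter on low values (adjusted p = 0.060). The higher members were Mrpl28, Mrpl45, which anchors the large subunit to the inner membrane, and Mrpl24. They changed by 0.23 ± 0.08, 0.23 ± 0.06 and 0.15 ± 0.05 (adjusted p = 0.035, 0.0080 and 0.0499). The call of Mrpl28 was lost without the array at 12, 14, 18 or 42 h (adjusted p = 0.15 without 42 h) and that of Mrpl24 when any 1 of 18 arrays was left out (adjusted p = 0.149 without 18 h). With arrays paired by clock hour 4 members were lower and 0 higher (12 and 3 at an unadjusted p under 0.05), and the calls of Mrpl38, Mrpl44, Mrpl45, Mrps31 and Mrps10 were lost (adjusted p = 0.058, 0.062, 0.14, 0.096 and 0.13). The mean of all kept probe sets of Mrpl28 changed by 0.10 (adjusted p = 0.31).

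Across the step, at 52 to 58 h against 28 to 34 h, 12 of 76 members were higher and 8 lower, against 21.0% and 15.3% of all genes tested. The median member changed by 0.03 as deposited and by -0.01 with quantile normalization or centring. In the large subunit 8 were higher and 6 lower, and in the small subunit 4 were higher and 2 lower. With centring 7 were higher and 11 lower, without the array at 30 h or at 56 h 7 were higher, and without that at 28 h 5 were lower. Mrps18b was 10.08, 10.12, 9.98 and 10.01 at 28 to 34 h and 10.62, 10.77, 10.70 and 10.84 at 52 to 58 h, a rise of 0.68 ± 0.10 or 1.61-fold (adjusted p = 2.4e-05). Mrpl1 rose by 0.55 ± 0.14, Mrps31 by 0.46 ± 0.07 and Mrpl43 by 0.38 ± 0.06 (adjusted p = 0.0034, 1.9e-05 and 3.3e-05), each without overlap. The other kept probe set of Mrpl1 changed by only 0.07 in this comparison (adjusted p = 0.63). Mrpl15 rose by 0.34 ± 0.07 (adjusted p = 0.00080). Mrpl21 rose by 0.26 ± 0.07 and Mrps10 by 0.29 ± 0.08 (adjusted p = 0.0072 and 0.0078). Mrps24, a relative of bacterial S3, rose by 0.28 ± 0.10 (adjusted p = 0.029), a call lost without the array at 30, 34, 54 or 56 h (adjusted p = 0.11 without 30 h). The largest fall was again in Mrpl14, by 0.56 on the log2 scale (SE 0.10, adjusted p = 0.00021). Mrpl18 changed by -0.40 ± 0.08, Mrpl54 by -0.38 ± 0.12 and Mrpl33 by -0.35 ± 0.07 (adjusted p = 0.00062, 0.020 and 0.00033). Mrps36 and Mrps21 changed by -0.30 ± 0.09 and -0.28 ± 0.09 (adjusted p = 0.0095 and 0.017). Without the array at 28 h the calls of Mrpl54 and Mrps21 were lost (adjusted p = 0.081 and 0.056), and without that at 58 h the call of Mrpl54 (adjusted p = 0.073, and 0.065 with no filter on low values).

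The step and the comparison before it share the arrays of 36 to 42 h, so a low value there enters both with opposite sign. The 2 comparisons over 1 day share no arrays, and their difference could be tested. Mrps18b changed by -0.58 over 1 day before the step and by 0.68 across it, a difference of 1.26 ± 0.15 (adjusted p = 1.0e-06). For Mrps28 the changes were -1.01 and 0.05, a difference of 1.06 ± 0.17 (adjusted p = 4.9e-05). For Mrpl14 they were 0.06 and -0.56, a difference of -0.62 ± 0.15 (adjusted p = 0.0021). In Mrpl54 the changes of -0.57 and -0.38 differed by 0.19 ± 0.17 (adjusted p = 0.44). In that test 34.4% of all genes were called.

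A 24 h rhythm was called in 2 of 76 members, where 2.77% of all genes tested were called. Mrps18a had an amplitude of 0.14 ± 0.03 on the log2 scale, with a fitted peak at 14.9 h after the shock (adjusted p = 0.021). Its values ran from 9.83 at 52 h through a median of 10.09 to 10.48 at 14 h, and the 40 h array, at 10.42, was the highest after 14 h. Mrpl22 had an amplitude of 0.13 ± 0.03 and a peak at 15.3 h (adjusted p = 0.046). Neither call held without each array in turn. Without the array at 26 h no member was called (9 at an unadjusted p under 0.05), with an adjusted p of 0.060 for Mrps18a, and without the 40 h array that of Mrpl22 was 0.098. With all arrays, 10 of 76 members had an unadjusted p under 0.05, beside 2024 of 9825 genes tested.

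Some members are listed next by functional centre of the ribosome, in classes of 3 to 7 proteins. Over 46 h 26.3% of all genes tested rose and 16.4% fell, and no class was tested against these shares. Of 4 proteins near the peptidyl transferase centre, where the peptide bond is made, Mrpl16 and Mrpl27 fell over 46 h by 0.30 and 0.26 on the log2 scale (adjusted p = 0.0012 and 0.0024), and Mrpl2 and Mrpl3 changed by 0.09 and -0.07 without a call. Of 3 proteins of the stalk that receives elongation factors, Mrpl11 fell by 0.28 (adjusted p = 0.00096), Mrpl10 rose by 0.16 (adjusted p = 0.032, and 0.079 without 58 h) and Mrpl12 changed by 0.09 (adjusted p = 0.39). Of 7 at the exit tunnel, Mrpl22, Mrpl24 and Mrpl45 rose by 0.24, 0.24 and 0.18, Mrpl23 fell by 0.26, and 3 were not called over 46 h. The linear call of Mrpl45 was lost when any 1 of 18 arrays was left out (adjusted p = 0.14 without 12 h), and that of Mrpl22 with centred arrays (adjusted p = 0.078). Before the step 2 of these 7 were higher and 2 lower, beside 14.3% and 12.1% of all genes tested. Of 5 in the central protuberance, Mrpl18 alone was called over 46 h. Before the step 0 of these 5 were higher and 2 lower. Across it 1 was higher and 1 lower, beside 21.0% and 15.3% of all genes tested. Over 46 h, 5 rose and 11 fell of the 46 members listed here as having a bacterial relative. Of the 30 not so listed, Mrps28 among them, 3 rose and 8 fell, beside 26.3% and 16.4% of all genes tested. Other listings were not tried.

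Most changes were small, and 31 of 76 members (40.8%) were called in none of the 5 tests, beside 32.8% of all genes tested. Among these were Mrps12, which guards decoding accuracy, with values from 10.43 to 10.76, and Mrps5, from 8.73 to 9.06. The range over 24 arrays was under 0.5 on the log2 scale in 33 members, and its median was 0.53 over members and 0.75 over all genes tested. It reached 1 in 5 members, Mrpl1, Mrpl14, Mrpl39, Mrpl54 and Mrps28. In Mrpl39 that range came from the 40 h array alone, which read 12.06 while the other 23 read 11.52 or less.

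Where a gene had more than 1 probe set, these gave no opposite calls. Of the members with several kept probe sets, 27 in all, 8 were called for the linear change, and in 7 of them every probe set had the same sign. At the step it was 6 of 6, before it 8 of 9 and across it 5 of 5. Fewer had another probe set called in the same direction. These were 5 of 8 for the linear change, 3 of 6 at the step, 4 of 9 before it and 2 of 5 across it. The other kept probe sets of Mrpl28 changed by -0.13 and -0.18 at the step, neither called (adjusted p = 0.35 and 0.087). The other kept probe set of Mrpl1 rose by 0.27 at the step (adjusted p = 0.037), but its linear change was -0.23 where the brighter one had 0.38, neither called. The representative probe sets included 6 whose name marks a match to more than 1 transcript and 1 whose name marks possible cross-hybridization, that of Mrpl44.

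Genes that act with the mitochondrial ribosome were counted in the same tests, and the plot of called shares sets them beside the members. Of 24 genes for ribosome assembly and ribosomal RNA modification, 10 rose at the step and 0 fell, also at an unadjusted p under 0.05, beside 20.5% and 12.7% of all genes tested. Before the step, in a comparison that shares the arrays of 36 to 42 h, 0 of them were higher, also at an unadjusted p under 0.05, and 7 were lower, beside 14.3% and 12.1% of all genes. Relative to its own mean, the average assembly gene stood at -0.01, -0.08, -0.17 and -0.08 at 36, 38, 40 and 42 h. At 44, 46, 48 and 50 h it stood at 0.10, 0.18, 0.09 and 0.16. The average translation factor stood at -0.04, -0.05, -0.26 and 0.06 at 36, 38, 40 and 42 h. No list of related genes was counted again without the 40 h array. Mterf3, known for mitochondrial transcription and large subunit assembly, rose by 0.55 ± 0.09, and Gtpbp10, an assembly GTPase, by 0.55 ± 0.09 (adjusted p = 8.2e-05 and 1.0e-04). Over 46 h Mettl15, a methyltransferase for small subunit RNA, rose by 0.91 ± 0.16, and Mrm2, one for large subunit RNA, fell by 0.54 (SE 0.09, adjusted p = 8.3e-05 and 8.9e-05). Of 13 translation factors, 5 rose at the step and 1 fell, beside the 20.5% and 12.7% of all genes. Lrpprc, which stabilizes mitochondrial messages, rose by 0.71 ± 0.15 (adjusted p = 0.0011), and Tufm, the elongation factor that brings tRNA, changed by -0.31 ± 0.07 (adjusted p = 0.0029). Of 4 further ribosomal proteins under other symbols, Ptcd3 rose by 0.38 ± 0.07 at the step (adjusted p = 0.00038), and Dap3 changed by 0.00 there (adjusted p = 0.99). With the 24 h cosine and sine beside the blocks, the calls of Lrpprc, Tufm and Ptcd3 were lost (adjusted p = 0.14, 0.084 and 0.056).

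Among 10 genes for mitochondrial transcription and DNA upkeep, Tefm, the transcription elongation factor, rose by 0.32 ± 0.09 at the step (adjusted p = 0.0074) and 0 fell, also at an unadjusted p under 0.05. The polymerase gene Polrmt changed by 0.25 ± 0.10 (adjusted p = 0.057, and 0.034 without 44 h). Among 10 nuclear regulators 5 rose at the step and 1 fell, beside 20.5% and 12.7% of all genes tested. Myc rose by 1.23 ± 0.10, or 2.35-fold (adjusted p = 6.3e-09), and Yy1 by 0.35 ± 0.06 (adjusted p = 8.7e-05), although the mean of all kept probe sets of Yy1 changed by 0.10 (adjusted p = 0.39). Gabpa, which encodes the DNA-binding part of GABP, fell by 0.33 on the log2 scale over 46 h (SE 0.06, adjusted p = 9.8e-05).

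The nuclear-encoded subunits of oxidative phosphorylation mostly fell. Of 71 such subunits, 43 fell over 46 h and 0 rose (1 at an unadjusted p under 0.05), where 16.4% and 26.3% of all genes tested did. At the step 36 fell and 2 rose, where 12.7% and 20.5% of all genes did. Relative to its own mean, the average subunit stood at 0.02, -0.001, 0.10 and 0.08 at 36, 38, 40 and 42 h. At 44, 46, 48 and 50 h it stood at -0.11, -0.11, -0.14 and -0.12. Cox7a2, a subunit of complex IV, changed by -0.46 ± 0.06 and Uqcrh, of complex III, by -0.40 ± 0.05 (adjusted p = 2.6e-06 and 1.0e-06). Of 41 cytosolic ribosomal proteins, 22 rose over 46 h and 0 fell, also at an unadjusted p under 0.05, beside 26.3% and 16.4% of all genes tested. No difference between the members and these lists was tested.

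**Figure D4:**
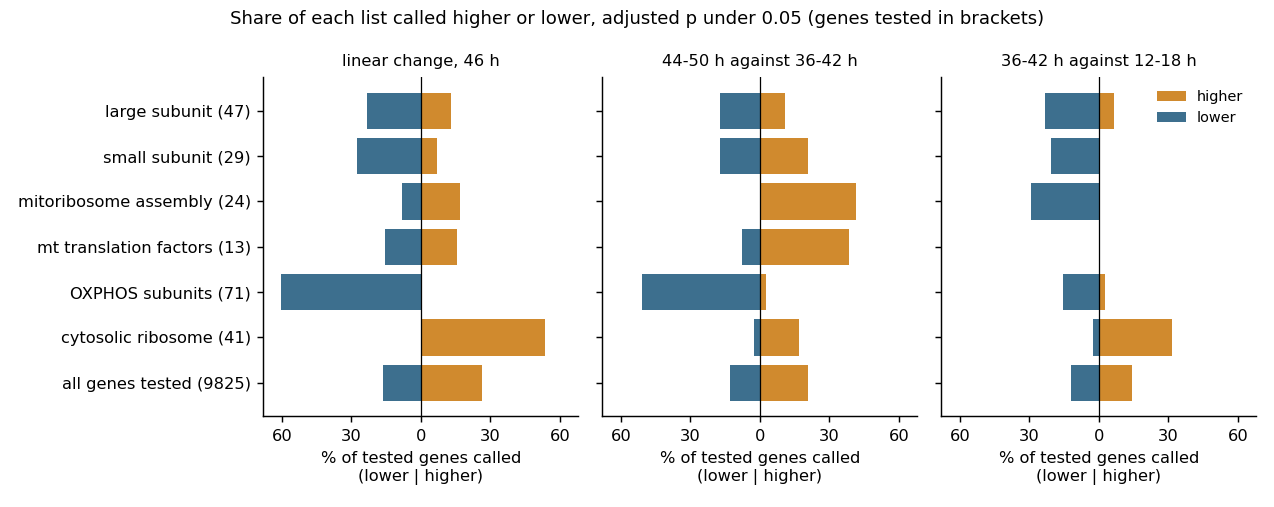
Percent of the tested genes of each list called higher (orange, to the right) or lower (blue, to the left) at an adjusted p under 0.05, for the linear change over 46 h, the step and the day before the step. The number of genes tested stands in brackets. The members of both subunits lie on both sides in the first 2 panels, while 43 of 71 oxidative phosphorylation subunits are lower and 22 of 41 cytosolic ribosomal proteins are higher in the first.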

How the data were processed

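The authors deposited log2 expression values per probe set of 24 Affymetrix mouse arrays, which the submitters' processing notes credit to GCRMA. That method removes background by probe sequence, scales the arrays jointly and summarizes probe sets. Its version and settings are not given in the sources used here, and the log2 scale was read from the values. The lowest value, 2.17, made up 41.2% of the table, so a gene at it has only an upper bound. Probe sets (45101, less 64 controls) were named from GEO's platform annotation, and all 76 members matched RefSeq by Entrez ID. Those at log2 5 or more on at least 6 arrays, 18526, were fitted with limma 3.58.1 in R 4.3.3 (lmFit, eBayes with an intensity trend) and Benjamini-Hochberg adjustment over all of them. One model held an intercept, a line and a 24 h cosine and sine, and another 6 blocks of 4 arrays. The fits were tested on simulated data. The number of arrays limits the precision. Members, gene lists, time blocks and tests were chosen with earlier results of these data known. Full statistics go to the 4 largest called changes per subunit, test and direction, to called rhythms, to the 3 members most and least correlated with their subunit, and to the 2 companions of smallest p per list in the step and linear tests. Alternatives were no filter, other scalings, variance priors and trends, the mean of all probe sets of a gene, pairing by clock hour, other subunit assignments and leaving out arrays. The comparison of the 2 days was added after the data were seen.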

Additional observations from a re-analysis of the deposited data

Results flagged for a closer look

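Among 174 blocks of 4 arrays, covering 27 named members and both subunit means, 16 held 1 array whose gap to the nearest of the others passed Dixon's critical ratio. Chance flags about 1 in 20 such blocks, and consecutive time points also differ by real change. On the array at 52 h the large subunit mean stood at -0.10, with the 3 later arrays at -0.02 each, and the small subunit mean at -0.12, with the others between 0.02 and 0.03. On the same array Mrps28 read 9.23, Mrps33 10.82 and Mrpl44 9.88, each below the later arrays of its block. On the array at 40 h Mrpl54 read 9.79, below the rest of its block, and Mrps21 at 11.66 and Mrps18a at 10.42 were above theirs. On the array at 18 h Mrpl22 at 10.58, Mrps2 at 10.001 and Mrps18b at 10.37 were below the 3 earlier arrays. On the array at 44 h Mrpl15 at 10.55 and Mrps28 at 9.10 were below the 3 later ones. The single cases were Mrps31 at 42 h, low at 9.33, Mrps2 at 48 h, low at 10.34, and Mrpl45 at 22 h, low at 10.82.

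The change over 24 h across the step differed from that before it in 18 of the 27 named members (limma, adjusted p under 0.05), where 34.4% of all genes tested were called. Most of the 27 were named for a change in these same comparisons, so the count is no evidence about the members. The difference, across minus before, was 1.26 for Mrps18b, 1.06 for Mrps28, 0.89 for Mrpl1, 0.73 for Mrps31, 0.66 for Mrpl50, 0.59 for Mrpl38, 0.54 for Mrps10, 0.44 for Mrps24, 0.42 for Mrpl43, 0.36 for Mrpl44, 0.36 for Mrpl21 and 0.35 for Mrpl19. It was -0.62 for Mrpl14, -0.51 for Mrpl28, -0.43 for Mrps36, -0.42 for Mrpl18, -0.37 for Mrps21 and -0.23 for Mrpl45.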

How the results depend on the processing

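The members called higher over 46 h were 8, and 5 with quantile normalization, 4 with centred arrays, 3 without 44 to 58 h, 19 without 12 to 18 h and 6 to 14 with 1 array left out. Rhythms were 2, and 1 with no filter, 1 with 1 variance prior, 1 with no trend, 4 with a quadratic trend, 5 with a level shift from 44 h on and 0 to 2 with 1 array left out. Members higher at the step were 11, and 7 with no filter, quantile normalization or centring, and 7 to 13 with 1 array left out. Members lower at the step were 13, and 5 with a 24 h cosine and sine beside the blocks and 10 to 13 with 1 array left out. With 2 arrays on each side 0 were higher and 0 lower by limma (6 and 3 at an unadjusted p under 0.05), where 9 genes were called in all. Before the step 3 were higher and 17 lower, and 1 and 9 with no filter, 0 and 4 when paired by clock hour (3 and 12 at an unadjusted p under 0.05), and 1 to 5 and 7 to 20 with 1 array left out. When paired by clock hour, 1027 of all 9825 genes tested were called. Across the step 12 were higher, and 7 with no filter or centring and 7 to 14 with 1 array left out, and 8 were lower, 5 to 9 with 1 array left out. With Mrps30 and Mrps18a moved to the large subunit and Mrps36 left out, the small subunit had 3 lower at the step in place of 5, and 1 across it in place of 2. Without 44 to 58 h the slope over 46 h changed sign in Mrpl43 (-0.0704), Mrpl14 (0.18), Mrps31 (-0.52), Mrps21 (0.14), Mrps36 (0.23), Ptcd3 (-0.15), Lrpprc (-0.16) and Yy1 (-0.0125). The cause was not tested. Calls that held without each array in turn were 21 of 27 for the linear change, 14 of 24 at the step, 8 of 20 before it, 12 of 20 across it and 0 of 2 for the rhythm.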
